A study of Mus musculus with 8 samples.

Results

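This account follows 10 genes of immune checkpoints and the B7 family through bulk RNA-seq of tumor-associated macrophages (TAMs). The genes are *Cd274*, *Pdcd1lg2*, *Cd80*, *Cd86*, *Icosl*, *Cd276*, *Vsir*, *Havcr2*, *Lgals9* and *Pvr*. They were chosen by gene name, as a family, out of 26939 genes in the deposited tables, and the rule uses no measured value, although the family was picked with earlier results of these data known. All 10 were found and all 10 passed the filter on low counts in every comparison. TAMs were sorted from EO771 tumors, an orthotopic mouse breast cancer, at day 21, gated on viable leukocytes (CD45+) that carried CD11b and F4/80 and lacked Gr-1. The 8 libraries were split evenly over 4 groups, WT mice with and without αMARCO and *Unc93b1* 3d/3d mice with and without αMARCO, where the groups without it are called control. The αMARCO antibody is a rat IgG1, clone ED31, against the scavenger receptor MARCO, and 100 µg was given on days 3, 6, 9 and 12. Mice were females of 8 to 14 weeks, and every mouse of every group carried an EO771 tumor. UNC93B1 is the chaperone that carries the nucleic acid-sensing Toll-like receptors (TLRs) to endosomes, and the 3d mutation leaves those TLRs without function in all cells of the mouse, not in macrophages alone. In the titles the control mice are untreated, the library names read PBS and the methods name an isotype antibody, so the injection that control mice received is not settled here. The genotype tag of *Unc93b1* 3d/3d control replicate 2 reads 3d/4d where its title reads 3d/3d, and the library was kept with its title.

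A T cell that meets antigen on a macrophage also reads the macrophage's co-signalling ligands. CD80 and CD86 engage CD28 to stimulate and CTLA-4 to inhibit, and ICOS ligand engages ICOS to stimulate. PD-L1 and PD-L2 engage PD-1 and inhibit, and PD-L1 on macrophages is induced by interferon-γ, in part through IRF1. B7-H3 and VISTA are further B7 family proteins, galectin-9 binds TIM-3, and CD155 binds TIGIT and DNAM-1. TIM-3, the product of *Havcr2*, is a receptor and not a ligand, so the list holds 9 ligands or counter-receptors and 1 receptor.

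The libraries held 15182618 to 26411936 counts, and the lowest count of any member in any library was 95, for *Pdcd1lg2*. The 10 macrophage marker genes summed to 10100 to 15880 CPM (counts scaled to library size) in all 8 libraries, with *Csf1r* at 903 to 1134 CPM. Macrophage genes were thus high in every library, but they were not uniform over the groups. By the test described below, *Adgre1*, *C1qa*, *C1qb* and *C1qc* were lower after αMARCO in WT, and 0 were higher. Between control groups *Mertk* and *Lyz2* were lower in WT and *Itgam* was higher. Replicates correlated at 0.981 in WT control, 0.989 in WT αMARCO and 0.983 among *Unc93b1* 3d/3d controls on log2 CPM across genes, but at 0.951 in *Unc93b1* 3d/3d αMARCO, whose libraries stood apart from each other. Values of the members that rest on those 2 libraries are therefore also given without each. *Unc93b1* itself was at 850 and 965 CPM in WT control against 539 and 659 CPM in *Unc93b1* 3d/3d control, but 3d is a point mutation, so its transcript level does not check the genotype. *Marco* was barely detected, at 0.0684 to 0.942 CPM. Each control sample was pooled from 3 mice, and nothing in the labels says whether the samples of a group came from separate animals, so p-values measure the spread between these samples. In bulk RNA, a change in the share of cells that express a gene and a change in RNA per cell cannot be told apart.

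Levels were compared between genes on FPKM, the count scaled to gene length. *Vsir*, *Cd274* and *Lgals9* were the 3 most abundant members in every group, and *Icosl*, *Pvr* and *Pdcd1lg2* were the 3 least abundant. In WT control the order began with *Vsir* at a mean of 110.8 FPKM, *Cd274* at 99.8 FPKM and *Lgals9* at 82.0 FPKM, and the libraries of *Vsir* and *Cd274* overlapped. In *Unc93b1* 3d/3d control *Cd274* stood at the third place, with 78.7 FPKM, below *Lgals9* at 88.8 FPKM and *Vsir* at 101.9 FPKM, with no overlap between neighbors. In WT αMARCO *Cd274* stood first, at 118 FPKM, above *Vsir* at 107 FPKM without overlap. In *Unc93b1* 3d/3d αMARCO it took the third place, with 52.7 FPKM, below *Vsir* at 97.1 FPKM and *Lgals9* at 95.01 FPKM, which overlapped each other. The place of *Cd274* in the order therefore moved between groups more than that of any other abundant member. *Cd274* made up 24.5% and 26.6% of the summed FPKM of the 10 members in WT mice given αMARCO, against 11.8% and 14.1% in *Unc93b1* 3d/3d mice given αMARCO, while both control groups lay between 18.1% and 24.7%. At the other end, *Pdcd1lg2* was last in 3 groups, at 9.56 FPKM in WT αMARCO, 4.21 FPKM in *Unc93b1* 3d/3d control and 4.78 FPKM in *Unc93b1* 3d/3d αMARCO. In WT control it stood at the eighth place, with 17.4 FPKM, and overlapped its neighbors *Cd276* at 21.0 FPKM and *Pvr* at 12.6 FPKM, with *Icosl* last at 11.4 FPKM.

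**Figure D1:**
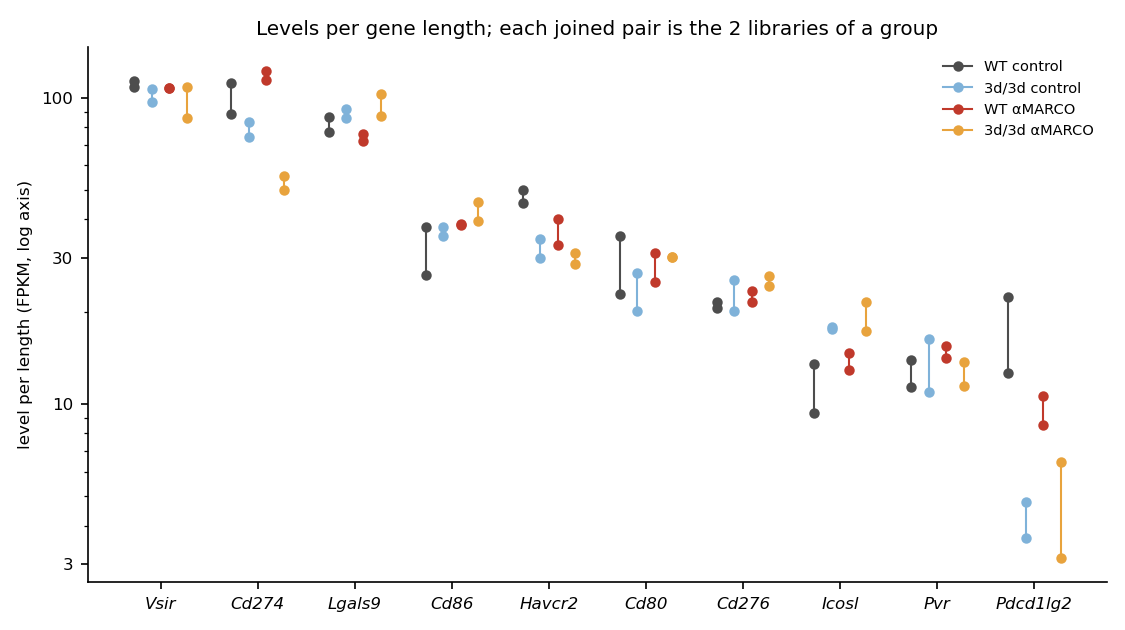
Level of each member per gene length (FPKM, log axis) in every library, with the 2 libraries of a group joined and groups in color. Vsir, Cd274 and Lgals9 lie above 49 FPKM in every library, Cd274 spreads most between groups among these 3, and Pdcd1lg2 has the lowest values of all.

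A gene was called different between 2 groups when edgeR's quasi-likelihood test gave an adjusted p of at most 0.05 (Benjamini-Hochberg over all genes tested) and the log2 fold change was 0.5 or more in either direction. Between WT control and *Unc93b1* 3d/3d control, 3 of the 10 members were called, against 13% of all 15600 genes tested (6.58% higher and 6.40% lower in WT). *Pdcd1lg2* and *Havcr2* were higher in WT control and *Icosl* was lower. Between WT αMARCO and WT control, 0 members were called, against 20.7% of 15630 genes (8.91% higher and 11.8% lower after αMARCO). Between *Unc93b1* 3d/3d αMARCO and *Unc93b1* 3d/3d control, 0 members and 0% of 15428 genes were called by edgeR, with 744 genes at an unadjusted p under 0.05 and 60 genes called by DESeq2. Between the WT and *Unc93b1* 3d/3d αMARCO groups, 0 members and 0% of 15722 genes were called by edgeR, with 1076 genes at an unadjusted p under 0.05, whereas DESeq2 called 215 genes, *Cd274* among them. For the difference of the αMARCO effect between WT and *Unc93b1* 3d/3d, 0 members and 0% of 16620 genes were called by edgeR, with 2549 genes at an unadjusted p under 0.05 and 208 genes called by DESeq2. The median log2 fold change of the members was 0.01, 0.01, 0.13 and 0.01 in the 4 comparisons of groups in turn, so the family as a whole did not shift to one side.

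**Figure D2:**
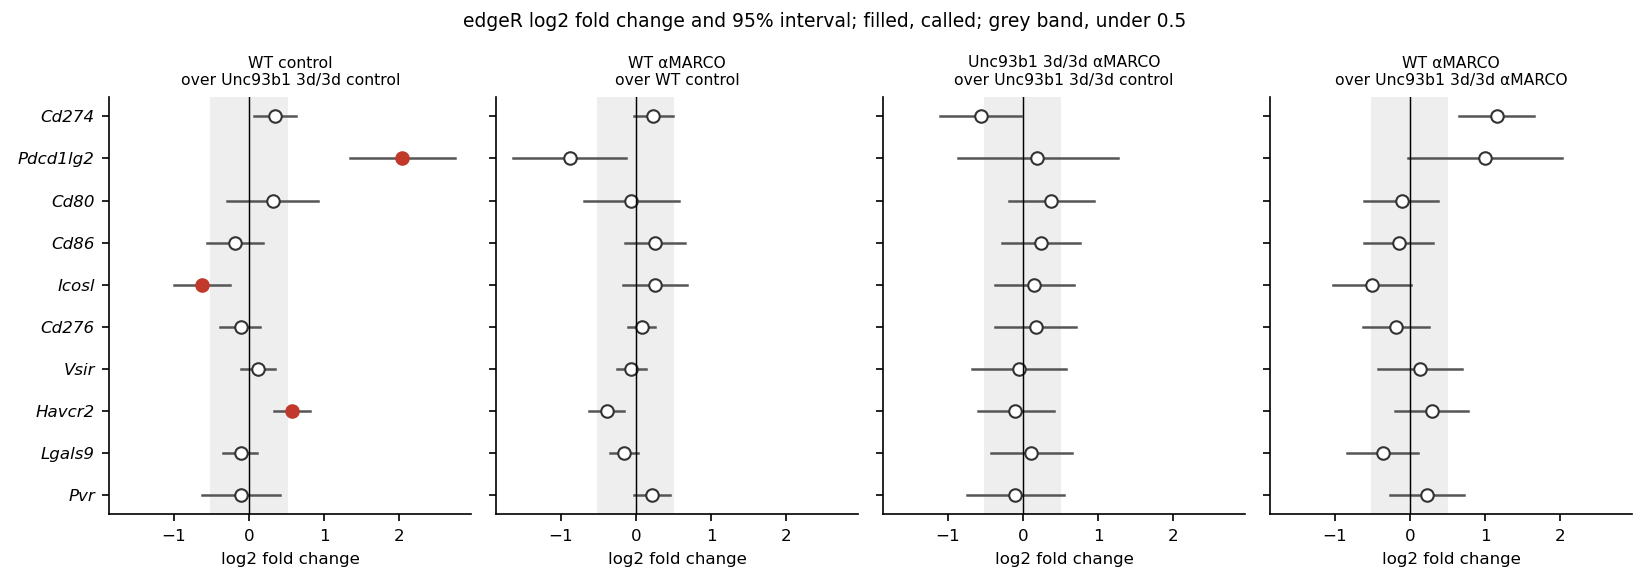
Log2 fold change of each member in the 4 comparisons (points) with its 95% interval (lines), where filled points are called and the grey band marks changes under 0.5. Pdcd1lg2 at 2.04 in the comparison of control groups is the largest value, and Cd274 at 1.16 and Pdcd1lg2 at 1.0 lead the comparison of αMARCO groups without being called.

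Whether the libraries of 2 groups overlap is a weak criterion with 2 libraries each, and its background was high. Between control groups, 5 members did not overlap, against 63.1% of all genes tested, with *Cd274*, *Pdcd1lg2*, *Vsir* and *Havcr2* higher and *Icosl* lower in WT. Between WT αMARCO and WT control, 6 members did not overlap, against 70.8% of all genes, with *Cd274* and *Cd86* higher and *Pdcd1lg2*, *Vsir*, *Havcr2* and *Lgals9* lower after αMARCO. In *Unc93b1* 3d/3d, 3 members did not overlap between αMARCO and control, against 39.0% of all genes, with *Cd80* and *Cd86* higher and *Cd274* lower after αMARCO. Between αMARCO groups, 8 members did not overlap, against 43.7% of all genes, with *Cd274*, *Pdcd1lg2*, *Havcr2* and *Pvr* higher and *Icosl*, *Lgals9*, *Cd86* and *Cd276* lower in WT. With treatment groups pooled, the 4 WT libraries lay above the 4 *Unc93b1* 3d/3d libraries for *Cd274* and *Pdcd1lg2* and below them for *Icosl*, whereas 7.28% of 16620 genes separated by genotype in this way. With genotypes pooled, *Cd86* was the 1 member for which all 4 αMARCO libraries lay above all 4 control libraries, against 9.03% of genes that separated by treatment.

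**Figure D3:**
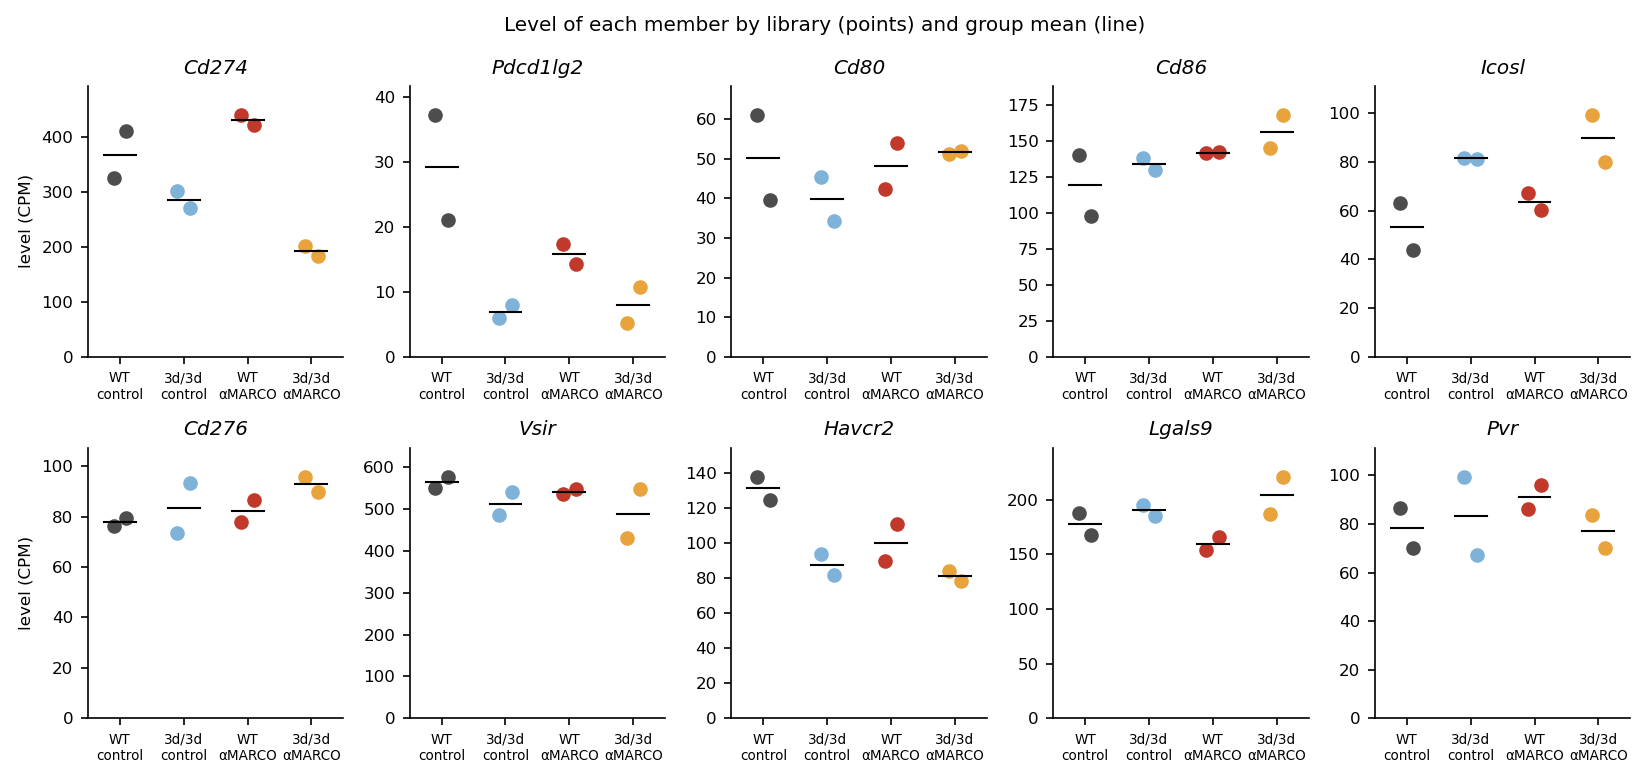
Level of each member (CPM, linear axes from 0, scaled per panel) in each of the 8 libraries (points) with the group mean (line). Cd274 is highest in WT αMARCO and lowest in 3d/3d αMARCO, and the WT control libraries differ from each other for Pdcd1lg2, Cd80, Cd86 and Icosl.

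The ligands of PD-1 are neighbors on chromosome 19. *Cd274* (ENSMUSG00000016496, chr19:29367455-29388095, plus strand, GRCm38) encodes PD-L1, and *Pdcd1lg2* (ENSMUSG00000016498, chr19:29410919-29471157, plus strand) encodes PD-L2, with 22823 bases between them. The bases just upstream of both start sites are shown, because the pair separated by genotype in all libraries, together with those of the other called genes, *Icosl* and *Havcr2*. They come from RefSeq on GRCm38.p6, which held a promoter for 8 of the 10 members, and none was at hand for *Cd86* and *Pvr*. The *Cd276* promoter, which was searched for motifs with the others, lies inside the gene as the deposited tables place it. All lie on the plus strand, the windows being chr19:29367188-29367437 for *Cd274*, chr19:29410669-29410918 for *Pdcd1lg2*, chr10:78069118-78069301 for *Icosl* and chr11:46454681-46454930 for *Havcr2*. The *Icosl* window ends at the base before the gene start in the deposited tables, upstream of the RefSeq start. Capitals mark a match to the NF-κB consensus in *Pdcd1lg2* and *Icosl* and to the AP-1 motif in *Havcr2*, and no other base of these windows matched a motif searched.

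Cd274: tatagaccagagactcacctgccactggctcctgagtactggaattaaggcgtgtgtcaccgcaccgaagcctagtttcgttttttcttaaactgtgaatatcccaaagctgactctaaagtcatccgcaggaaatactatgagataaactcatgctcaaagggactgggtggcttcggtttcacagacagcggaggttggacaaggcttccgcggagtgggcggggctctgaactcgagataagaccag
Pdcd1lg2: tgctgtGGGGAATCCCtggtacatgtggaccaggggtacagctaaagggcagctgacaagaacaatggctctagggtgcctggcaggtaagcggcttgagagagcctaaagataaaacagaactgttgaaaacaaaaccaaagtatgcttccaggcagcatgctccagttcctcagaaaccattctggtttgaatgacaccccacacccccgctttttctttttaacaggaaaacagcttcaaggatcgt
Icosl: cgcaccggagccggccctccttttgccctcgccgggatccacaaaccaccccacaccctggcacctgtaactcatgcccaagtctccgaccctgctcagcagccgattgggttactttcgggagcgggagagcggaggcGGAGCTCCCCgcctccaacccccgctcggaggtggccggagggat
Havcr2: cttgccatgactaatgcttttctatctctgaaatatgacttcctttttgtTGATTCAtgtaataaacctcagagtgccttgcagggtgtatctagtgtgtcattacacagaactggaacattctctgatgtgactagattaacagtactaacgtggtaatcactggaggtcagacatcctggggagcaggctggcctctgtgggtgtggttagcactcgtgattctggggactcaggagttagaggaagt

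Of the motifs searched on both strands in the 250 bases before the start site, the E-box CACGTG had no match in the 8 member promoters, whereas 6.02% of 32851 mouse promoters held it. The NF-κB consensus was found in 2 members and in 7.25% of all promoters. It lay 244 to 235 bases before the RefSeq start of *Pdcd1lg2*, on both strands, and 111 to 102 bases before that of *Icosl*, on the minus strand. The AP-1 motif TGANTCA was found in 2 members, *Havcr2* at 200 to 194 bases and *Cd80* at 42 to 36 bases before the start, and in 6.75% of all promoters. The IRF motif, GAAA followed by 2 bases of any kind and GAAA, was found in *Lgals9* alone, 55 to 46 bases before the start on the minus strand, and in 2.98% of all promoters. No match overlapped another, and *Cd274* had no match to any of these motifs within these letters. These matches describe letters and were not tested as sites.

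*Cd274* was at 324 and 409.5 CPM in the WT control libraries and 439 and 421 CPM in the WT αMARCO libraries, against 301 and 270.2 CPM in the *Unc93b1* 3d/3d controls and 201 and 182 CPM in *Unc93b1* 3d/3d mice given αMARCO. Both αMARCO-treated WT libraries lay above every other library, both αMARCO-treated *Unc93b1* 3d/3d libraries lay below every other library, and the control groups lay between without overlapping each other. The log2 fold change of WT over *Unc93b1* 3d/3d was 0.34 (SE 0.13, edgeR adjusted p 0.0901) in the control groups and 1.16 (SE 0.20, 95% interval 0.65 to 1.66, p 0.00187, edgeR adjusted p 0.327) in the αMARCO groups. The second value is a 2.23-fold difference that did not pass adjustment over all genes. It passed with DESeq2 (1.17, adjusted p 0.000503), with all 8 libraries in 1 edgeR model (1.15, adjusted p 0.0317), and in edgeR without *Unc93b1* 3d/3d αMARCO replicate 1 (1.25, adjusted p 1.18e-12) or replicate 2 (1.07, adjusted p 2.86e-07). In those last fits 6366 and 1252 of all genes were also called, against 0 with both libraries, and the lone library was assumed to vary like the WT pair. In the control groups, *Cd274* was called when WT control replicate 1 was left out (0.51, edgeR adjusted p 0.00897), and its value fell to 0.17 (adjusted p 0.453) without replicate 2.

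The αMARCO effect on *Cd274* pointed opposite ways in the genotypes. In WT the log2 fold change of αMARCO over control was 0.23 (SE 0.11, 95% interval -0.02 to 0.49, edgeR adjusted p 0.142). The same change in *Unc93b1* 3d/3d was -0.56 (SE 0.22, 95% interval -1.11 to -0.02, p 0.0444, edgeR adjusted p 0.823). The difference of these effects was 0.79 on the log2 scale (SE 0.24, 95% interval 0.24 to 1.35, p 0.0106), which did not pass adjustment in edgeR (adjusted p 0.318). For the *Unc93b1* 3d/3d effect, leaving out αMARCO replicate 1 gave -0.64 (edgeR adjusted p 0.000655), past the call, and leaving out replicate 2 gave -0.48 (adjusted p 0.0403), short of the fold minimum. For the difference, the fits without replicate 1 (0.88, edgeR adjusted p 0.00119) and without replicate 2 (0.70, adjusted p 0.0465) both passed, beside 6440 and 612 of all genes. In WT, the effect shrank to 0.07 without control replicate 1 and grew to 0.41 without control replicate 2, neither being called. The 9 nonclassical monocyte genes summed to 1536 and 1487 CPM in the WT control libraries and 1250.0 and 1427 CPM in the WT αMARCO libraries, against 607 and 459.9 CPM in the *Unc93b1* 3d/3d controls and 806 and 1042 CPM in *Unc93b1* 3d/3d mice given αMARCO. The 8 neutrophil genes summed to 316 to 385 CPM in the 4 WT libraries and 219.9 to 268 CPM in the 4 *Unc93b1* 3d/3d libraries, although the gate removed Gr-1+ cells. The neutrophil sum was mostly *Csf3r*, at 194 to 360 CPM, and each of the other 7 genes was at most 36.1 CPM. By point estimate, 7 of 7 neutrophil genes tested were higher in WT between control groups, but only 2 of 5 between αMARCO groups. Between αMARCO groups their median log2 fold change was -1.13. The nonclassical monocyte sum was carried by *Nr4a1*, at 309 to 923 CPM, and by *Cd300e*, at 558 and 615 CPM in WT control, 253 and 271 CPM in WT αMARCO and 7.56 to 13.6 CPM in *Unc93b1* 3d/3d. The part of these cells in the *Cd274* values was not tested.

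**Figure D4:**
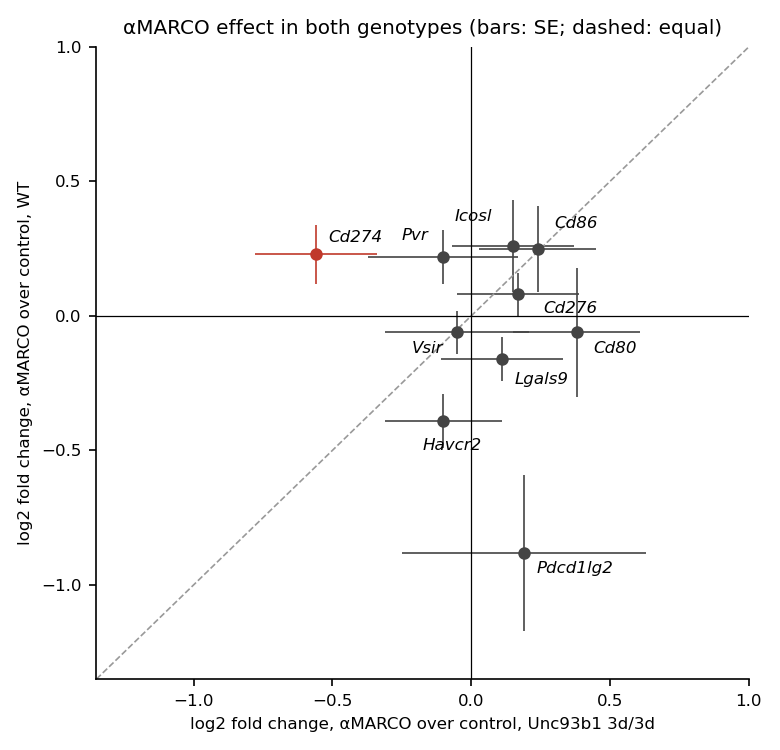
Log2 fold change of αMARCO over control in WT (vertical axis) against that in Unc93b1 3d/3d (horizontal axis) for each member, with bars of 1 standard error and a dashed line of equal effects. Cd274 (red) lies at 0.23 in WT and -0.56 in Unc93b1 3d/3d, above the line, and Pdcd1lg2 at -0.88 and 0.19, below it. The axes come from separate libraries.

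*Pdcd1lg2* followed *Cd274* by genotype but not by treatment. It was at 37.2 and 21.1 CPM in the WT control libraries and 17.4 and 14.2 CPM in the WT αMARCO libraries, against 5.96 and 7.91 CPM in the *Unc93b1* 3d/3d controls and 5.15 and 10.7 CPM in *Unc93b1* 3d/3d mice given αMARCO. WT control was high, WT αMARCO lay between, both *Unc93b1* 3d/3d groups were low and overlapped each other, and the WT control pair differed 1.77-fold. The level in WT control was 4.13-fold that in *Unc93b1* 3d/3d control (log2 fold change 2.04, SE 0.29, edgeR adjusted p 0.00556), the largest difference of any member in any comparison. The call was lost without *Unc93b1* 3d/3d control replicate 1 (1.87, edgeR adjusted p 0.105) or replicate 2 (2.26, adjusted p 0.0688). It was kept without WT control replicate 1 (1.59) or replicate 2 (2.41). In WT, αMARCO libraries were lower than control by a log2 fold change of -0.88 (SE 0.29, edgeR adjusted p 0.0744), which was not called by edgeR but was by DESeq2 (-0.87, adjusted p 0.00255). Leaving out WT control replicate 1 brought the value to -0.42 (edgeR adjusted p 0.0503), and leaving out replicate 2 brought it to -1.24 (adjusted p 2.91e-07). The αMARCO effect in *Unc93b1* 3d/3d was 0.19 (SE 0.44), with 0.62 without αMARCO replicate 1 and -0.41 without replicate 2. The difference of the effects, -1.06 (SE 0.54, 95% interval -2.30 to 0.18, edgeR adjusted p 0.354), did not pass, but did without *Unc93b1* 3d/3d αMARCO replicate 1 (-1.49, adjusted p 0.038). Between αMARCO groups the log2 fold change was 1.0 (SE 0.40, edgeR adjusted p 0.709), and it was called without replicate 1 (0.57, adjusted p 0.0103) or replicate 2 (1.58, adjusted p 1.36e-05) of *Unc93b1* 3d/3d αMARCO. The ratio of *Cd274* to *Pdcd1lg2* FPKM was 3.96 and 8.83 in the WT control libraries and 11.5 and 13.5 in the WT αMARCO libraries, against 22.9 and 15.5 in the *Unc93b1* 3d/3d controls and 17.7 and 7.76 in *Unc93b1* 3d/3d mice given αMARCO. Only the last of these libraries fell within the WT control range.

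Genes of mature migratory dendritic cells, which also express PD-L2, moved alongside. The 11 genes of that list summed to 1948 and 1302 CPM in the WT control libraries and 744 and 854 CPM in the WT αMARCO libraries, against 679 and 693 CPM in the *Unc93b1* 3d/3d controls and 722 and 891 CPM in *Unc93b1* 3d/3d mice given αMARCO. *Ccr7*, the chemokine receptor that defines them, was at 215 and 119 CPM in WT control and at 9.10 to 16.8 CPM in the other 6 libraries. WT control was therefore the high group for these genes as for *Pdcd1lg2*, with replicate 1 above replicate 2 for both, whereas *Cd274* was higher in replicate 2. Between control groups 5 of the 10 genes tested from that list were called higher in WT and 0 lower, and after αMARCO in WT 0 were called higher and 6 lower. The 10 conventional dendritic cell genes were also highest in WT control, with sums of 435 and 357 CPM, against 251 and 254 CPM in WT αMARCO and 149 to 295 CPM in the *Unc93b1* 3d/3d libraries. Of these genes, 1 was called higher and 0 lower in WT between control groups, and 0 higher and 5 lower after αMARCO in WT. Of all genes, 6.58% were called higher and 6.40% lower between control groups, and 8.91% higher and 11.8% lower after αMARCO in WT. The conventional dendritic cell sum was mostly *Wdfy4*, at 114.5 to 258 CPM, which was not called in either comparison (0.23 and -0.20). The part of dendritic cells in the *Pdcd1lg2* values was not tested. Of the remaining lists, classical monocyte genes summed to 522 to 1288 CPM and B cell genes to 17.0 to 61.7 CPM over the 8 libraries. Epithelial tumor cell genes summed to 30.7 to 106 CPM, and fibroblast and endothelial cell genes to 143 to 369 CPM. In WT control the largest B cell gene was *Cd79b*, at 36.7 and 41.2 CPM. The largest fibroblast and endothelial cell gene there was *Pecam1*, at 203 and 199 CPM. Between control groups, *Cd79b* was called higher in WT and 1 B cell gene lower, with a list median log2 fold change of -0.51. *Pecam1* was called higher and 2 genes of its list lower, with a median of -0.67. Of the 11 marker lists, no gene that was found was at 0 in all libraries, and *Bcl11b* of the T cell list was not found.

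**Figure D5:**
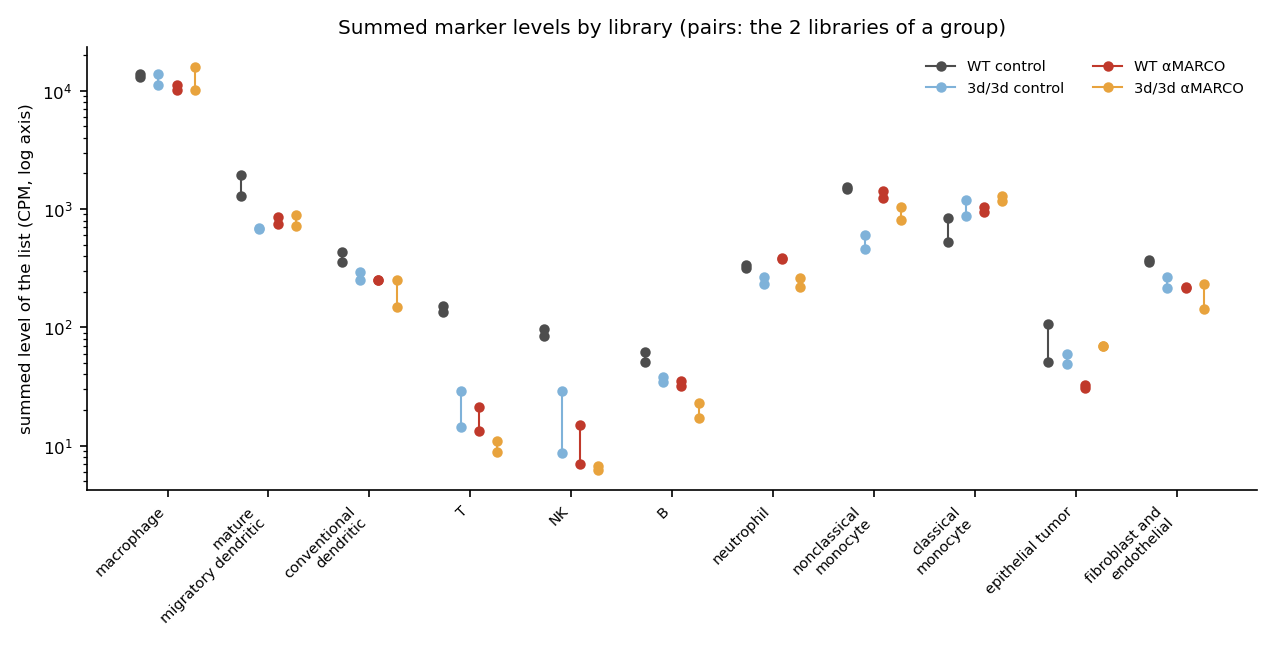
Summed CPM of the marker genes of 11 cell types (log axis) in each library, with the 2 libraries of a group joined. Macrophage markers are highest throughout, at 10100 to 15880 CPM. The sums of WT control lie above the other groups for mature migratory and conventional dendritic cell, T cell, NK cell and nonclassical monocyte genes. They also do for B cell genes, of which Cd79b is the largest in WT control. The same holds for fibroblast and endothelial cell genes, of which Pecam1 is the largest there.

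The ligands of CD28 and ICOS split. *Cd80* (chr16:38458933-38486933, plus strand) was at 61.0 and 39.4 CPM in the WT control libraries and 42.3 and 53.9 CPM in the WT αMARCO libraries, against 45.4 and 34.4 CPM in the *Unc93b1* 3d/3d controls and 51.3 and 51.8 CPM in *Unc93b1* 3d/3d mice given αMARCO. All groups overlapped apart from the *Unc93b1* 3d/3d pair, in which αMARCO libraries lay above control (log2 fold change 0.38, SE 0.23, edgeR adjusted p 0.823). In the control groups its value of 0.32 (edgeR adjusted p 0.419) rested on 1 library, since it was 0.61 and called without WT control replicate 2 (adjusted p 0.00905) and -0.02 without replicate 1. *Cd86* (chr16:36603869-36666081, minus strand) was at 140.2 and 98.1 CPM in the WT control libraries and 141 and 142 CPM in the WT αMARCO libraries, against 138 and 129.7 CPM in the *Unc93b1* 3d/3d controls and 145 and 168 CPM in *Unc93b1* 3d/3d mice given αMARCO. The αMARCO libraries lay above control in both genotypes, by a log2 fold change of 0.25 (SE 0.16, edgeR adjusted p 0.273) in WT and 0.24 (SE 0.21, adjusted p 0.823) in *Unc93b1* 3d/3d. Their difference was 0.02, with a 95% interval of -0.58 to 0.62. The WT value was 0.53, and called, without WT control replicate 1 (edgeR adjusted p 0.000155). CD80 and CD86 share both receptors, and the ratio of *Cd80* to *Cd86* FPKM stayed between 0.571 and 0.936 in the 8 libraries.

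*Icosl* (chr10:78069302-78083913, plus strand), the ligand of ICOS, ran against the PD-1 ligands by genotype. It was at 63.2 and 43.7 CPM in the WT control libraries and 67.2 and 60.4 CPM in the WT αMARCO libraries, against 81.9 and 81.2 CPM in the *Unc93b1* 3d/3d controls and 99.4 and 80.2 CPM in *Unc93b1* 3d/3d mice given αMARCO. Every WT library lay below every *Unc93b1* 3d/3d library. In the control groups the log2 fold change of WT over *Unc93b1* 3d/3d was -0.63 (SE 0.16, edgeR adjusted p 0.0353), a 1.54-fold higher level in *Unc93b1* 3d/3d. This call was lost without WT control replicate 2 (-0.38, edgeR adjusted p 0.0603), without *Unc93b1* 3d/3d control replicate 1 (-0.62, adjusted p 0.205) or replicate 2 (-0.64, adjusted p 0.173), and with all 8 libraries in 1 model (-0.61, adjusted p 0.20). In the αMARCO groups it was -0.51 (SE 0.21, edgeR adjusted p 0.709), -0.32 without *Unc93b1* 3d/3d αMARCO replicate 1 and -0.67, called, without replicate 2 (adjusted p 4.06e-05). The αMARCO effect was 0.26 (SE 0.17) in WT and 0.15 (SE 0.22) in *Unc93b1* 3d/3d, neither called. In WT it was 0.01 to 0.54 when single libraries were left out, and it was called at 0.54 without WT control replicate 1 (edgeR adjusted p 0.000624).

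*Vsir* and *Cd276* moved least. *Vsir* (chr10:60346851-60372684, plus strand) encodes VISTA, which keeps myeloid and T cells quiescent. It was at 550.1 and 578 CPM in the WT control libraries and 535 and 547 CPM in the WT αMARCO libraries, against 485 and 539.6 CPM in the *Unc93b1* 3d/3d controls and 430.0 and 547 CPM in *Unc93b1* 3d/3d mice given αMARCO. The control groups did not overlap but differed by a log2 fold change of 0.12 (SE 0.10, 95% interval -0.10 to 0.35, edgeR adjusted p 0.432), and the WT interval for αMARCO was -0.25 to 0.13. *Cd276* (chr9:58524298-58555437, minus strand) encodes B7-H3, whose receptor is unsettled. It was at 76.4 and 79.6 CPM in the WT control libraries and 78.0 and 86.7 CPM in the WT αMARCO libraries, against 73.4 and 93.3 CPM in the *Unc93b1* 3d/3d controls and 95.9 and 89.7 CPM in *Unc93b1* 3d/3d mice given αMARCO. Its αMARCO effect in WT was 0.08 (95% interval -0.10 to 0.26), and the αMARCO groups differed by -0.19 (SE 0.17, edgeR adjusted p 0.736). The intervals were wider in *Unc93b1* 3d/3d, -0.68 to 0.57 for *Vsir* and -0.37 to 0.71 for *Cd276*, so a change of 0.5 was not excluded there.

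*Havcr2* and *Lgals9* are a receptor and its ligand, both on chromosome 11. Their point estimates differed in sign between control groups (0.57 and -0.11) but not for αMARCO in WT (-0.39 and -0.16). *Lgals9* was not called in any comparison. *Havcr2* (chr11:46454935-46481255, plus strand) encodes TIM-3, which restrains T cells and is also carried by myeloid cells. It was at 138 and 125 CPM in the WT control libraries and 89.7 and 111 CPM in the WT αMARCO libraries, against 93.6 and 81.8 CPM in the *Unc93b1* 3d/3d controls and 84.3 and 78.2 CPM in *Unc93b1* 3d/3d mice given αMARCO. WT control lay above all other libraries, and both αMARCO groups overlapped *Unc93b1* 3d/3d control. WT control exceeded *Unc93b1* 3d/3d control by a log2 fold change of 0.57 (SE 0.11, edgeR adjusted p 0.00747), or 1.48-fold, and the call was lost without *Unc93b1* 3d/3d control replicate 2 (0.46, adjusted p 0.0296) and with all 8 libraries in 1 model (0.58, adjusted p 0.121). In WT the αMARCO effect was -0.39 (SE 0.10, edgeR adjusted p 0.0157), past the p threshold but under the fold minimum, and it was called at -0.54 without WT αMARCO replicate 2 (adjusted p 0.0112). Without WT αMARCO replicate 1 it was -0.25 (edgeR adjusted p 0.176). The *Unc93b1* 3d/3d effect was -0.10 (SE 0.21), and the difference of the effects was -0.30 (SE 0.22, edgeR adjusted p 0.48). T cells, which can carry TIM-3, gave marker sums of 135 and 151 CPM in the WT control libraries and 13.2 and 21.1 CPM in the WT αMARCO libraries, against 28.9 and 14.2 CPM in the *Unc93b1* 3d/3d controls and 8.88 and 10.9 CPM in *Unc93b1* 3d/3d mice given αMARCO. The T cell gene *Cd3e* was at 4.59 and 8.81 CPM in WT control and at most 1.57 CPM elsewhere. *Havcr2* and the T cell sum were both highest in WT control, and the part of T cells in the *Havcr2* values was not tested.

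*Lgals9* (chr11:78962974-78984946, minus strand) encodes galectin-9. It was at 188 and 168 CPM in the WT control libraries and 154 and 165 CPM in the WT αMARCO libraries, against 196 and 185 CPM in the *Unc93b1* 3d/3d controls and 186 and 221 CPM in *Unc93b1* 3d/3d mice given αMARCO. WT αMARCO was the lowest group and *Unc93b1* 3d/3d αMARCO overlapped both control groups. Its effects of αMARCO were -0.16 (SE 0.08, edgeR adjusted p 0.175) in WT and 0.11 (SE 0.22, adjusted p 0.903) in *Unc93b1* 3d/3d, with a difference of -0.27 (SE 0.21, adjusted p 0.49). The αMARCO groups differed by a log2 fold change of -0.36 (SE 0.19, edgeR adjusted p 0.709), and by -0.47 without *Unc93b1* 3d/3d αMARCO replicate 1 and -0.25 without replicate 2. *Pvr* (chr7:19903578-19921160, minus strand) encodes CD155. It was at 86.6 and 70.3 CPM in the WT control libraries and 86.2 and 96.0 CPM in the WT αMARCO libraries, against 99.5 and 67.1 CPM in the *Unc93b1* 3d/3d controls and 83.7 and 70.3 CPM in *Unc93b1* 3d/3d mice given αMARCO. The control groups overlapped fully, with a log2 fold change of -0.10 (95% interval -0.62 to 0.41), and the αMARCO groups did not, with 0.23 (SE 0.19, edgeR adjusted p 0.722).

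The values that rest on the *Unc93b1* 3d/3d αMARCO libraries were also taken without replicate 1 and without replicate 2, in that order. The αMARCO effect in *Unc93b1* 3d/3d was then 0.38 and 0.39 for *Cd80*, 0.33 and 0.14 for *Cd86*, -0.02 and 0.31 for *Icosl*, 0.11 and 0.23 for *Cd276*, 0.10 and -0.23 for *Vsir*, -0.16 and -0.03 for *Havcr2*, 0.22 and 0 for *Lgals9* and -0.24 and 0.03 for *Pvr*. None of these was called, and the sign depended on the library for *Icosl*, *Vsir* and *Pvr*. Between αMARCO groups the log2 fold change was -0.12 and -0.25 for *Cd276* and 0.38 and 0.09 for *Pvr*. The difference of the effects was -0.07 and 0.10 for *Cd86*, -0.23 and -0.38 for *Havcr2* and -0.37 and -0.17 for *Lgals9*, again without a call.

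The receptors of these ligands, mostly genes of T and NK cells, were mostly scarce in sorted TAMs and concentrated in WT control. Of 18 listed, 17 were found and 16 were tested between control groups, where 8 were called higher in WT and 0 lower, with a median log2 fold change of 1.13 beside 0.00 for all genes. In WT, αMARCO over control gave 0 higher and 12 lower of 16 tested, with a median of -1.56 beside -0.01 for all genes. By the same rule, 6.58% of all genes were called higher and 6.40% lower in WT between control groups. The shares for αMARCO in WT were 8.91% higher and 11.8% lower. *Ctla4*, the inhibitory receptor of CD80 and CD86, was at 11.4 and 10.8 CPM in WT control, 2.51 and 1.42 CPM in *Unc93b1* 3d/3d control and 0.435 and 1.17 CPM in WT αMARCO. It was called in both comparisons (2.49, edgeR adjusted p 0.00102, and -3.73, adjusted p 0.00016). *Cd28*, the stimulatory one, was at 1.95 and 1.77 CPM in WT control and under 0.51 CPM in the other 6 libraries, and was likewise called (2.40, edgeR adjusted p 0.0226, and -2.53, adjusted p 0.00773). *Tigit*, a receptor of CD155, was at 7.43 and 11.02 CPM in WT control and 1.69 and 1.07 CPM in *Unc93b1* 3d/3d control (2.74, edgeR adjusted p 0.00121), and *Cd96*, another, was at 2.58 and 2.66 CPM against 0.125 and 0.152 CPM. *Pdcd1*, which encodes PD-1, was at 12.97 and 14.6 CPM in WT control and 4.02 and 0.254 CPM in *Unc93b1* 3d/3d control, not called (2.73, SE 1.14, edgeR adjusted p 0.226). In WT αMARCO *Pdcd1* was at 1.35 and 1.76 CPM and was called lower than control (-3.13, edgeR adjusted p 5.78e-05). *Icos* was called lower after αMARCO in WT as well (-3.01, edgeR adjusted p 0.000513). Also among the 8 were *Selplg* and *Cd200r1*, named after their values were seen because myeloid cells express them too, at 424 and 382 CPM against 193 and 198 CPM for *Selplg* and at 99.3 and 108 CPM against 58.8 and 57.9 CPM for *Cd200r1* in the control groups. The receptor genes of lymphocytes moved with the T cell markers, of which all 11 tested were called higher in WT control than in *Unc93b1* 3d/3d control and all 11 lower after αMARCO in WT. NK cell markers summed to 96.8 and 84.9 CPM in WT control and 6.26 to 28.9 CPM elsewhere, and the sort gate did not select for either cell type. In the comparisons involving *Unc93b1* 3d/3d αMARCO, 0 receptors were called by edgeR.

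Of the genes that induce or stabilise PD-L1, 18 of 18 were tested between control groups. In WT, 3 were called higher and 1 lower, against 6.58% higher and 6.40% lower of all genes. The median log2 fold change of the list was 0.13 beside 0.00 for all genes. *Ifng*, the main inducer, was at 7.96 and 7.98 CPM in the WT control libraries and 0.193 and 1.33 CPM in the WT αMARCO libraries, against 0.879 and 0 CPM in the *Unc93b1* 3d/3d controls and 0.0444 and 0.274 CPM in *Unc93b1* 3d/3d mice given αMARCO. It was called higher in WT control than in *Unc93b1* 3d/3d control (4.26, SE 0.92, edgeR adjusted p 0.0344) and lower after αMARCO in WT (-3.31, SE 0.59, adjusted p 0.00764). *Ifng* was thus highest in WT control and *Cd274* in WT αMARCO, and the part of interferon-γ in the *Cd274* values was not tested. *Irf1*, an interferon-induced transcription factor, was at 314 and 405 CPM in the WT control libraries and 344 and 332 CPM in the WT αMARCO libraries, against 180.2 and 226 CPM in the *Unc93b1* 3d/3d controls and 169 and 249.9 CPM in *Unc93b1* 3d/3d mice given αMARCO. All 4 WT libraries lay above all 4 *Unc93b1* 3d/3d libraries, as for *Cd274*, and the log2 fold change in the control groups was 0.81 (SE 0.15, edgeR adjusted p 0.0113). The αMARCO effect on *Irf1* in WT was -0.09 (SE 0.12) and not called. *Nfkb1*, a subunit of NF-κB, was also higher in WT control (0.74, SE 0.11, edgeR adjusted p 0.00268), and *Cmtm4*, a PD-L1 stabiliser, was lower (-0.55, SE 0.14, adjusted p 0.0258). *Jak2* (0.46, SE 0.24, edgeR adjusted p 0.252) and *Cmtm6* (0.17, SE 0.10, adjusted p 0.263), which protects PD-L1 from degradation, were not called between the control groups or in any other comparison. In the comparisons involving *Unc93b1* 3d/3d αMARCO, 0 genes of this list were called by edgeR.

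Of 18 other co-signalling ligands listed, 15 were found and 11 were tested. Between control groups 1 was called higher and 1 lower in WT, against 6.58% and 6.40% of all genes. After αMARCO in WT 1 was called higher and 1 lower, against 8.91% and 11.8% of all genes. Between control groups *Cd200*, a ligand that restrains myeloid cells, was called higher in WT (3.07, SE 0.30, edgeR adjusted p 0.000369). It was at 17.3 and 12.8 CPM against 2.26 and 1.32 CPM, and at most 1.76 CPM in the αMARCO groups. *Ccr7* and the T cell sum were also highest in WT control. The part of dendritic cells or T cells in the *Cd200* values was not tested. *Nectin4* was called lower in WT between control groups (-0.52, SE 0.10, edgeR adjusted p 0.00824). After αMARCO in WT, *Tnfrsf14*, the ligand of BTLA, was called higher (0.84, SE 0.10, edgeR adjusted p 0.000441), at 177 and 149.7 CPM against 87.6 and 94.5 CPM in control, and *Cd200* lower (-3.39, SE 0.27, adjusted p 7.84e-05). In *Unc93b1* 3d/3d αMARCO *Tnfrsf14* was at 109 and 25.6 CPM, a pair that differed from each other by more than the WT groups did. The medians of this list were 0.06 between control groups and -0.07 for αMARCO in WT, and 0 of its genes were called by edgeR in the comparisons involving *Unc93b1* 3d/3d αMARCO.

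The genes whose log2 CPM followed a member most closely over the 8 libraries were named by Pearson's r, as a description, since libraries share groups. *Cd274* was followed by *Pitpnc1* (r 0.976), *Slc28a2* (r 0.975) and *Adam17* (r 0.968). *Pdcd1lg2* was followed by *Cnpy3* (r 0.98), *Cd40* (r 0.963) and *Herpud1* (r 0.956). *Havcr2* was followed by *Vcp-rs* (r 0.975), *Il15ra* (r 0.966) and *Traf1* (r 0.966), and *Icosl* by *Cnr2* (r 0.969), *Dusp6* (r 0.966) and *Gm15880* (r 0.959). No member was among the 3 genes closest to these 4 members.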

How the data were processed

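Poly-A RNA of the 8 sorted samples was sequenced on an Illumina NovaSeq instrument. After cleaning by fastp, the authors aligned reads to GRCm38 using HISAT2 2.0.5 and deposited raw counts per gene from featureCounts 1.5.0, in 3 tables of 2 groups each. The authors also deposited FPKM values, which divide each count by gene length and by a library total (their methods name TPM). The deposited normalized signal is the count divided by a size factor set within each table and was not used. The deposited log2 fold changes and p-values are the authors' DESeq2 1.40.2 comparisons and were not used. Strandedness of the counting is not given in the sources used here. A gene on the other strand overlaps exons of *Cd274* and another those of *Cd276*. They held 0 and 54 counts over the 8 libraries, and reads from the overlap could not be told apart without strand.

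Tables were joined by gene identifier. Of 95230 counts present in more than 1 table, 0 differed, and genes absent from a table were set to 0. Each comparison was fitted on its 4 libraries with edgeR 4.0.16 (R 4.3.3; TMM, filterByExpr, robust quasi-likelihood test, Benjamini-Hochberg adjustment over all genes tested), and the difference of the αMARCO effects on all 8. CPM were scaled to TMM library sizes. Group membership came from the sample titles. The scripts were tested on simulated data. Alternatives were DESeq2 1.42.0, DESeq2 size factors, no filter, a minimum of 10 counts per library, 1 model over all 8 libraries, a replicate block, no fold minimum and each library left out. The total counts of 15182618 to 26411936 put every member well above the floor of 3 counts. The p and fold thresholds are those of the study.

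The members and the lists of receptors, inducers, other ligands and markers were chosen with earlier results of these data known. Named are all 10 members, up to 4 called genes of the receptor, inducer and other ligand lists with the largest change in a comparison, and *Ifng*, *Irf1*, *Jak2*, *Cmtm6*, *Pdcd1*, *Cd28* and *Ctla4* in any case, and 1 further gene of the rule is not reported here. Marker genes were outside the rule, and those named were chosen after their values were seen. *Vtcn1*, *Igsf11*, *Btn2a2*, *Cd244a* and *Bcl11b* were listed but not found by these names, and were not analysed here. The likeness ranking took genes of at least 10 CPM on average.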

Additional observations from a re-analysis of the deposited data

Results flagged for a closer look

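The αMARCO effect on *Cd274* ran in opposite directions in the genotypes, with no overlap between groups in either. Both WT αMARCO libraries lay above both WT control libraries, and both *Unc93b1* 3d/3d αMARCO libraries lay below both of their controls. Groups did not overlap for 70.8% of all genes in WT and 39.0% in *Unc93b1* 3d/3d. Point estimates also had opposite signs for *Pdcd1lg2* (-0.88 in WT and 0.19 in *Unc93b1* 3d/3d), *Cd80* (-0.06 and 0.38), *Lgals9* (-0.16 and 0.11) and *Pvr* (0.22 and -0.10), for which the groups overlapped in at least 1 genotype. The difference of the log2 fold changes was 0.79 (SE 0.24, p 0.0106, edgeR adjusted p 0.318), so the test of the difference did not pass adjustment over all genes.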

How the results depend on the processing

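With 2 libraries a group, calls turned on single libraries. Leaving out each library in turn gave 0 to 4 members called between control groups (3 with all libraries), 0 to 2 for αMARCO in WT, 0 to 1 for αMARCO in *Unc93b1* 3d/3d, 0 to 3 between αMARCO groups and 0 to 2 for the difference of the effects. All 8 libraries in 1 model gave 1 member between control groups and 1 between αMARCO groups. DESeq2 gave 1 for αMARCO in WT and 1 between αMARCO groups, and the absence of a filter and of a fold minimum each gave 1 for αMARCO in WT. The cause was not tested.

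Replicate numbers are not said to pair samples. Deviations of same-numbered libraries correlated at -0.08 to 0.14, so no strong shared effect of the number was seen. With 2 libraries a group this cannot settle whether samples were paired. With the replicate block, 1 member was called for αMARCO in WT, *Pdcd1lg2* at -0.84 (edgeR adjusted p 0.00191), and no other member's call changed.

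Over all genes, calls between control groups were 2025 and 364 with all 8 libraries in 1 model. For αMARCO in WT they were 3236, and 164 with that model, 5487 without the fold minimum and 1940 without WT αMARCO replicate 1. For αMARCO in *Unc93b1* 3d/3d they were 0, and 60 with DESeq2, 174 without a filter, 1 with all libraries, 5 with the block and 1 to 5500 with a library left out. Between αMARCO groups they were 0, and 215, 107, 108, 97 and 17 to 6366 in the same order. For the difference of the effects they were 0, and 208 with DESeq2, 152 without a filter and 0 to 6440 with a library left out.

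Signs turned when a library was left out, and only for values not called. Between control groups the ranges were -0.02 to 0.61 for *Cd80*, -0.46 to 0.06 for *Cd86*, -0.27 to 0.06 for *Cd276* and -0.37 to 0.21 for *Pvr*. For αMARCO in WT the range was -0.34 to 0.28 for *Cd80*. For αMARCO in *Unc93b1* 3d/3d they were -0.41 to 0.62 for *Pdcd1lg2*, -0.02 to 0.31 for *Icosl*, -0.23 to 0.10 for *Vsir*, -0.19 to 0.01 for *Havcr2* and -0.35 to 0.21 for *Pvr*. Between αMARCO groups they were -0.28 to 0.04 for *Cd80* and -0.01 to 0.30 for *Vsir*. For the difference of the effects they were -0.22 to 0.29 for *Cd86*, -0.14 to 0.39 for *Icosl*, -0.28 to 0.07 for *Cd276* and -0.15 to 0.15 for *Vsir*, whose value of 0.00 with all libraries was 0.00 to 0.07 under the other settings.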
